A study of Mus musculus with 12 samples.

Results

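The genes described here are the NF-kB transcription factor subunits and the kinase complexes that release them, followed across control, transmembrane TNF and soluble TNF endothelial cells. Of the 9 genes listed by symbol, 7 had a probe set named in the platform annotation (Nfkb2, Rela, Relb, Rel, Ikbkb, Ikbkg and Map3k14), with 18 probe sets between them among the 45101 on the array. Each gene is represented by its probe set with the highest mean log2 signal over the 12 arrays. Nfkb1 and Chuk had no probe set named in the annotation table used here and were not analysed here. Of the 7 genes, 6 passed a low-signal filter (a signal of 100 or more on at least 4 arrays) and were tested among 10269 genes. Rel, at 100 or more on 3 of 12 arrays, did not pass and is given by its values alone.

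The cells were cultured endothelial cells from wildtype newborn mice, with 4 arrays in each of 3 groups. Control cells were mock-transfected. Cells called tmTNF were stably transfected with a mutant murine TNF that cannot be cleaved and stays in the membrane, which gives constant exposure. The remaining cells received soluble TNF at 20 ng/ml for 4 h, and the labels do not make clear whether these had also been mock-transfected. The labels name neither the promoter of the construct nor the number of transfected clones. Nothing in them states that the replicates come from different cultures or mice, and the tests reflect the variation among these 4 arrays a group, part of which may be technical. Values are MAS5 signal intensities in arbitrary units. Levels of different probe sets are not comparable with each other, and only differences between arrays are.

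NF-kB proteins are dimeric transcription factors held inactive in the cytoplasm. In the canonical route a TNF receptor activates a complex of the kinases encoded by Ikbkb and Chuk with the scaffold encoded by Ikbkg (NEMO), inhibitor proteins are degraded, and dimers such as those of Rela (p65) and the Nfkb1 product enter the nucleus. In the slower noncanonical route the kinase NIK, encoded by Map3k14, accumulates and acts through the Chuk product, so that the Nfkb2 precursor p100 is processed to p52, which pairs with Relb. In endothelium the pathway is known for switching on adhesion molecules and chemokines. The arrays measure mRNA, so they show neither the processing of p100 nor the stability of NIK or any kinase activity.

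Nfkb2 is the gene whose signal differed most clearly between groups, so the stretches around its annotated starts are shown, with Rela, the other subunit discussed at length beside it, for comparison. The sequences are from RefSeq, build GRCm38.p6, and each covers 250 bases before and 50 after an annotated start, 5′ to 3′ on the strand of the gene. Of the 7 genes with values, 5 had an entry. Capitals mark matches to the kB consensus motif, a pattern of 10 bases searched on both strands, with overlapping matches merged. The array values name no genome build, and no binding was measured.
Nfkb2 first start, chr19:46304487-46304786, plus strand: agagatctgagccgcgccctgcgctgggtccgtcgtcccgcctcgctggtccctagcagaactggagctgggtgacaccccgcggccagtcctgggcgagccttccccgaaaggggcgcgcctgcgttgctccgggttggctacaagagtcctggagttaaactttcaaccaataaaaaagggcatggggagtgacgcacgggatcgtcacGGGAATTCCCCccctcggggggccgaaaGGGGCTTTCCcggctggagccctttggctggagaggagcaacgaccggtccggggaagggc
Nfkb2 second start, chr19:46305445-46305744, plus strand: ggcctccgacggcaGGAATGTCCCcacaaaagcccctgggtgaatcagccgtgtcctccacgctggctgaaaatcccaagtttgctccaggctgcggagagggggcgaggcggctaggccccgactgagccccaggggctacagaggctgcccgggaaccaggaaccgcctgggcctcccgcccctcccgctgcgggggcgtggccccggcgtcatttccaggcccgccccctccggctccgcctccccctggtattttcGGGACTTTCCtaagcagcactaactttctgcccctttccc
Rela, chr19:5637291-5637590, plus strand: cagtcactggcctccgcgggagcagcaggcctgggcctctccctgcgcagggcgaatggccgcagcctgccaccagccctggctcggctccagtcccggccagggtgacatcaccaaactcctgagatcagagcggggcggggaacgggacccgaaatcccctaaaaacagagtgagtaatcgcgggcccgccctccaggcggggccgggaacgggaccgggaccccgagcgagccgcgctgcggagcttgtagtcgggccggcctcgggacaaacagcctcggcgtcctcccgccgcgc

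The first Nfkb2 stretch held 2 marked runs, GGGAATTCCCC from 39 bases before the start and GGGGCTTTCC from 11 bases before it. The second held 2 as well, GGAATGTCCC (a match on the opposite strand) and GGGACTTTCC. The last of the 3 annotated Nfkb2 starts overlaps the second and holds GGGACTTTCC again. Of the other genes with values and an entry, Rel had 1 run, GGGAAATCCCC, and the stretches of Rela, Ikbkg (4 annotated starts) and Map3k14 had 0. Among 32851 such stretches of all genes, 8.46% held the motif. A match describes the letters only and shows no factor bound, and its absence says only that these letters are not in this window.

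Endothelial markers were present on every array but unequally. All 12 of 12 listed markers passed the filter, and their mean log2 signal ran from 9.04 to 12.47, lowest in control replicate 3 (9.04), tmTNF replicate 4 (9.86) and tmTNF replicate 2 (9.90). The summed signal of 8 fibroblast and mural markers ran from 335 to 5591 in controls, 348 to 8617 in tmTNF and 1359 to 5572 in soluble TNF cells, and that of 5 mesothelial markers from 332 to 10590, 171 to 14061 and 405 to 4390. The highest fibroblast and mural sum was mostly Dcn with tmTNF (7271), but mostly Col1a2 in controls (4009) and after soluble TNF (3248). The summed signal of 8 leukocyte markers ran from 808 to 18867 in controls, 5206 to 7680 in tmTNF and 615 to 1109 in soluble TNF cells, so that the tmTNF and soluble TNF arrays did not overlap. That sum consisted of Cd68 and Cd14 to 56.5% to 97.9% in controls, to 73.8% to 95.5% in tmTNF cells, and to 42.0% to 78.0% after soluble TNF. The pan-leukocyte gene Ptprc stayed under 40 on all 12 arrays, and 4 of the 8 markers never reached 100. Of 4 epithelial markers 0 passed the filter, and their sum was 116 to 281. In such bulk RNA, fewer cells of a type and less RNA per cell cannot be told apart. The Y-linked genes Eif2s3y, Kdm5d and Uty gave 218.8 to 1683 on tmTNF arrays and at most 39.52 on the other 8, so the exposure and this difference cannot be told apart in any tmTNF comparison.

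Nfkb2, which encodes p100 and its product p52, rose after soluble TNF. Its control signals were 258.6, 432.9, 379.4 and 432.4 in replicates 1 to 4. With tmTNF they were 465.1, 630.2, 805.3 and 930.7, and with soluble TNF 2527, 1564, 1956 and 1858. The 3 groups did not overlap at any step, although tmTNF replicate 1 lay only just above the highest control. The means were 375.8 ± 82.1, 707.8 ± 203 and 1976 ± 403 (SD, n = 4 each). After soluble TNF Nfkb2 was 5.11-fold above control (log2 fold change 2.35 ± 0.26 SE, 95% interval 1.79 to 2.92, limma adjusted p = 0.0103), with the smallest p of the 10269 genes. In tmTNF cells the log2 fold change was 0.87 ± 0.26 (interval 0.30 to 1.43), which did not pass the threshold (adjusted p = 0.336). The direct comparison passed: Nfkb2 was lower with tmTNF than with soluble TNF by 2.80-fold (log2 fold change -1.49 ± 0.26, adjusted p = 0.0232).

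The Nfkb2 calls rested on few arrays, while the sizes moved little. Leaving out 1 array at a time, the log2 fold change of soluble TNF against control ran from 2.19 to 2.46 and kept its call in 10 of 12 fits. It was lost without soluble TNF replicate 1 (adjusted p = 0.0669) and without soluble TNF replicate 3 (adjusted p = 0.0682). The difference between tmTNF and soluble TNF ran from -1.63 to -1.30 and kept its call in 7 of 12 fits. It was lost without tmTNF replicate 2 (adjusted p = 0.0799) and without soluble TNF replicate 1 (0.0791), 2 (0.0557), 3 (0.0583) or 4 (0.057). Without the 3 arrays lowest in endothelial markers the values were 2.37 (adjusted p = 0.0233) and -1.64 (adjusted p = 0.0485), and with the endothelial marker score as a covariate they were 2.33 (adjusted p = 0.00696) and -1.47 (adjusted p = 0.0158). The 3 arrays left out were control replicate 3 and tmTNF replicates 2 and 4, with no soluble TNF array among them. The 2.37 is therefore also the size without control replicate 3 alone, and the -1.64 rests on tmTNF replicates 1 and 3. With group means removed, Nfkb2 correlated over the 12 arrays at r = -0.64 with the leukocyte marker score and at 0.60 with the fibroblast and mural score. The part of these and of the Y-linked signal in the result was not tested.

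A second Nfkb2 probe set, dimmer and of a type whose probes can also match other transcripts, followed the first over the 12 arrays (r = 0.92). Its signals were 91.53 to 122.6 in controls and 320.5 to 472.6 after soluble TNF, and these groups did not overlap. With tmTNF it gave 100.2, 175.7, 423.7 and 197.4, so it overlapped both other groups. On this probe set tmTNF replicate 3 was the highest of the tmTNF arrays, whereas on the brighter one it was replicate 4.

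**Figure D1:**
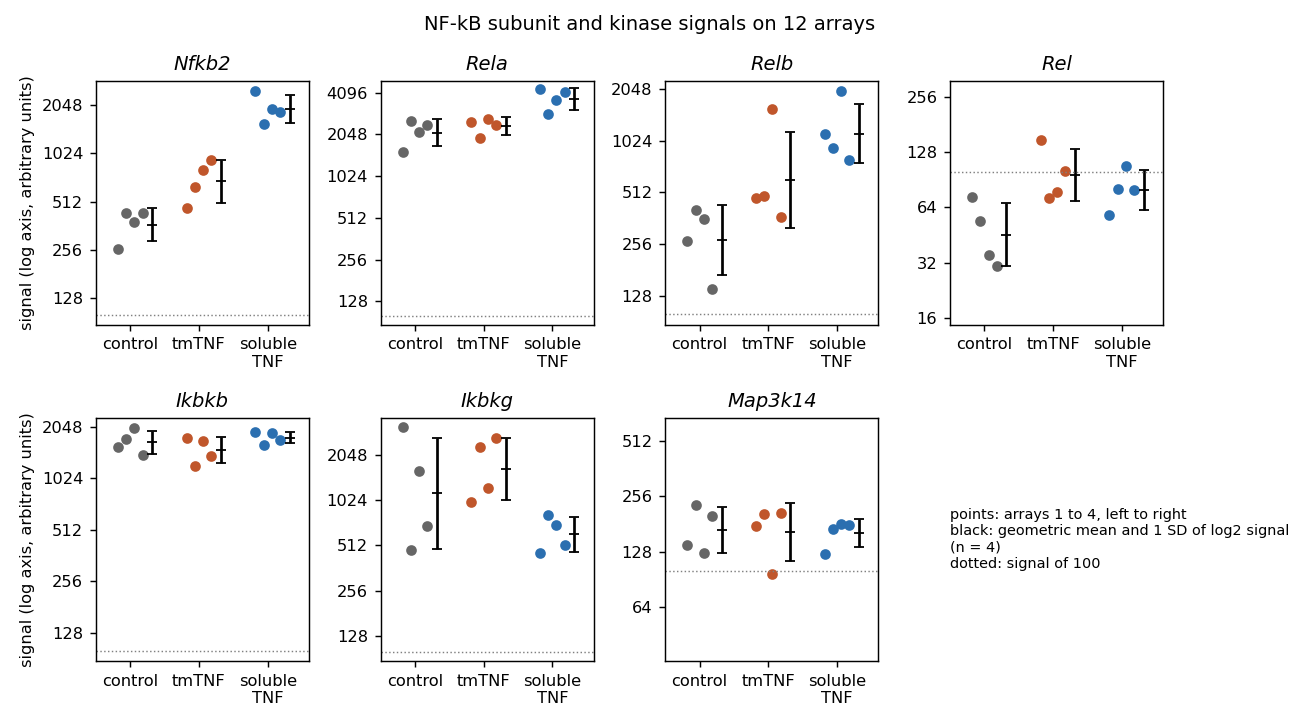
Signal of the 7 genes on each of the 12 arrays (log axis, arbitrary units), grouped by control, tmTNF and soluble TNF. Points are single arrays in replicate order, black marks are the geometric mean and 1 SD of the log2 signal (n = 4), and the dotted line is a signal of 100. Nfkb2 rises in steps without overlap from controls (258.6 to 432.9) to soluble TNF (1564 to 2527), while Ikbkb stays between 1216 and 2016 on every array.

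Relb encodes the usual partner of p52 in the noncanonical route. Its control signals were 267.1, 405.2, 358.1 and 141.1. With tmTNF they were 478.3, 491.4, 1557 and 366.7, and with soluble TNF 1119, 923.7, 1982 and 790.5. The soluble TNF arrays all lay above the controls, while tmTNF overlapped both other groups because replicate 4 fell among the controls and replicate 3 among the soluble TNF arrays. The log2 fold change was 1.98 ± 0.46 with soluble TNF (3.96-fold, interval 0.97 to 2.99, adjusted p = 0.204). With tmTNF it was 1.11 ± 0.46 (interval 0.10 to 2.12, adjusted p = 0.622), but 0.66 without tmTNF replicate 3 and 1.73 without the 3 arrays lowest in endothelial markers. Between tmTNF and soluble TNF it was -0.88 ± 0.46 (adjusted p = 0.312), and -1.32 and -0.38 in those 2 settings. Relb therefore passed the threshold in 0 of 3 comparisons.

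Rela encodes p65, the main activating subunit of the canonical dimer. Its control signals were 1520, 2535, 2141 and 2374. With tmTNF they were 2520, 1911, 2661 and 2375, within the range of the controls apart from replicate 3. With soluble TNF they were 4311, 2867, 3611 and 4110, above every other array. The soluble TNF mean was 3725 ± 643 against 2143 ± 446 in controls (SD, n = 4), a log2 fold change of 0.80 ± 0.21 (1.74-fold, interval 0.35 to 1.26) that did not pass over all genes (adjusted p = 0.226). Between tmTNF and soluble TNF it was -0.64 ± 0.21 (adjusted p = 0.133). With limma's array weights, which gave soluble TNF replicates 1 and 4 weights of 3.52 and 3.97, this difference passed (-0.76, adjusted p = 0.0226). Under these weights 1176 of 10269 genes passed in this comparison, against 125 without them. For tmTNF against control the Rela value was 0.16 ± 0.21 with an interval of -0.30 to 0.61.

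Within each array, Nfkb2 was set against Rela as the difference of their log2 values, a measure chosen after the values had been seen and given without a test. Only its movement between arrays has meaning. It was nearly the same on the 4 control arrays (-2.51 to -2.41, SD 0.04), although both signals differed by 1.67-fold between the lowest and highest of those arrays. It was -2.40, -1.58, -1.70 and -1.34 with tmTNF and -1.14 to -0.77 with soluble TNF. Nfkb2 therefore moved further than Rela on all soluble TNF arrays and on 3 of 4 tmTNF arrays, and tmTNF replicate 1 lay beside the controls. For Relb against Rela the control arrays spread from -3.93 to -2.44 and overlapped those of tmTNF.

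**Figure D2:**
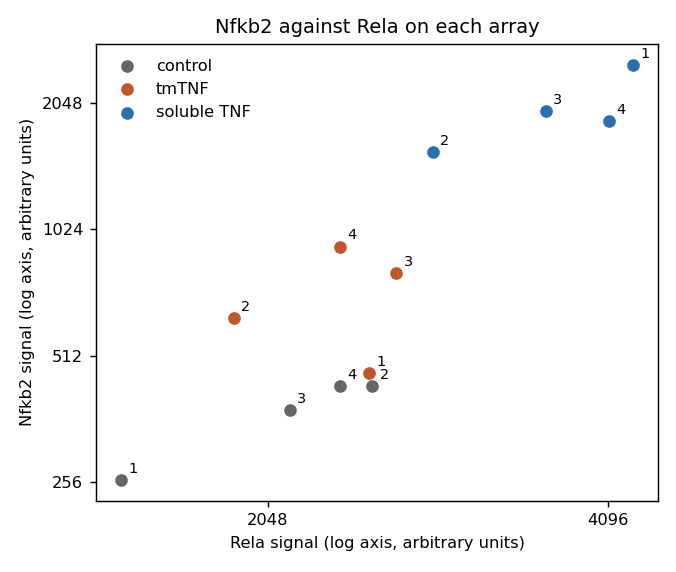
Nfkb2 signal against Rela signal on each array (both on log axes, arbitrary units), coloured by group and numbered by replicate. The control arrays lie along a line, with log2 differences of -2.51 to -2.41, and tmTNF replicates 2 to 4 and the soluble TNF arrays lie above it.

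Rel encodes c-Rel, a subunit best known from lymphocytes. Its signals were 73.16, 53.78, 35.35 and 30.73 in controls, 149.5, 72.48, 78.11 and 101.4 with tmTNF, and 57.91, 80.97, 107.5 and 79.19 with soluble TNF. All controls lay under 100, and 3 of the 8 exposed arrays reached it, 2 of them tmTNF. The groups overlapped in each comparison, tmTNF and control only by tmTNF replicate 2 (72.48) lying just under control replicate 1 (73.16). Differences this close to the dim end were not tested.

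Ikbkb encodes the kinase that marks the inhibitors for degradation in the canonical route. It was the steadiest of the 7 genes in signal, with means of 1678 ± 263 in controls, 1516 ± 257 with tmTNF and 1779 ± 140 with soluble TNF (SD, n = 4). Its log2 fold changes were 0.09 ± 0.19 with soluble TNF (interval -0.31 to 0.50), -0.15 ± 0.19 with tmTNF (-0.55 to 0.26) and -0.24 ± 0.19 between them (-0.65 to 0.16), and 0 of these passed (adjusted p = 0.864, 0.929 and 0.496). Of its 5 probe sets 3 passed the filter. Their differences ran from -0.04 to 0.32 for soluble TNF against control and overlapped in every comparison.

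Map3k14 encodes NIK, whose protein is normally kept low by constant degradation. Its signals were among the dim ones, 125.2 to 230.0 in controls, 96.48 to 207.2 with tmTNF and 123.8 to 181.0 with soluble TNF. The log2 fold changes were -0.06 ± 0.30 with soluble TNF (interval -0.72 to 0.60) and -0.04 ± 0.30 with tmTNF (-0.70 to 0.62), with adjusted p-values of 0.955 and 0.992. The other Map3k14 probe set barely followed the first (r = 0.11) and differed in sign, with 0.42 and 0.40 for the same comparisons. No direction can be given for Map3k14.

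Ikbkg encodes NEMO, the scaffold that binds ubiquitin chains and holds the kinase complex together. Its control signals were 3122, 475.1, 1599 and 690.3, a 6.57-fold spread within one group. With tmTNF they were 990.4, 2284, 1232 and 2647, and with soluble TNF 458, 816.2, 700.3 and 511.5. All tmTNF arrays lay above all soluble TNF arrays, and the controls spanned both. The log2 difference between tmTNF and soluble TNF was 1.42 ± 0.52 (interval 0.28 to 2.56) and did not pass (adjusted p = 0.17). It passed only with array weights (1.65, adjusted p = 0.0234), under which 1176 of 10269 genes did. Against control it was -0.89 ± 0.52 with soluble TNF (adjusted p = 0.501), or -0.41 when control replicate 1 was left out. With tmTNF it was 0.53 ± 0.52 (adjusted p = 0.904), and it ran from 0.12 when control replicate 2 was omitted to 1.01 when control replicate 1 was.

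The uneven Ikbkg signal was shared by its probe sets. All 6 passed the filter, and the other 5 correlated with the brightest at r = 0.76 to 0.96 over the 12 arrays. Control replicate 1 gave the highest or second highest signal of the 12 arrays on each of them. Between tmTNF and soluble TNF all 6 were higher with tmTNF (log2 0.40 to 1.42), and 5 of 6 did so without overlap. Ikbkg lies on the X chromosome. The Y-linked signal given above separates tmTNF from soluble TNF cells and also from controls, while Ikbkg overlapped between tmTNF and controls. With group means removed, Ikbkg correlated over the 12 arrays at r = -0.46 with the endothelial marker score, 0.47 with the leukocyte score and 0.41 with the mesothelial score. The summed leukocyte signal also separates tmTNF from soluble TNF (5206 to 7680 against 615 to 1109), and control replicate 1, highest in Ikbkg, is highest in it too (18867). On that array Cd68 alone gave 18210 of the sum. Its leukocyte score (7.35) lay below those of tmTNF replicates 1 (7.53) and 3 (7.44). The part of these signals in the Ikbkg difference was not tested beyond the endothelial score. Without the 3 arrays lowest in those markers the difference between tmTNF and soluble TNF was 0.85 (adjusted p = 0.451), and with their score as a covariate it was 1.48 (adjusted p = 0.0985).

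**Figure D3:**
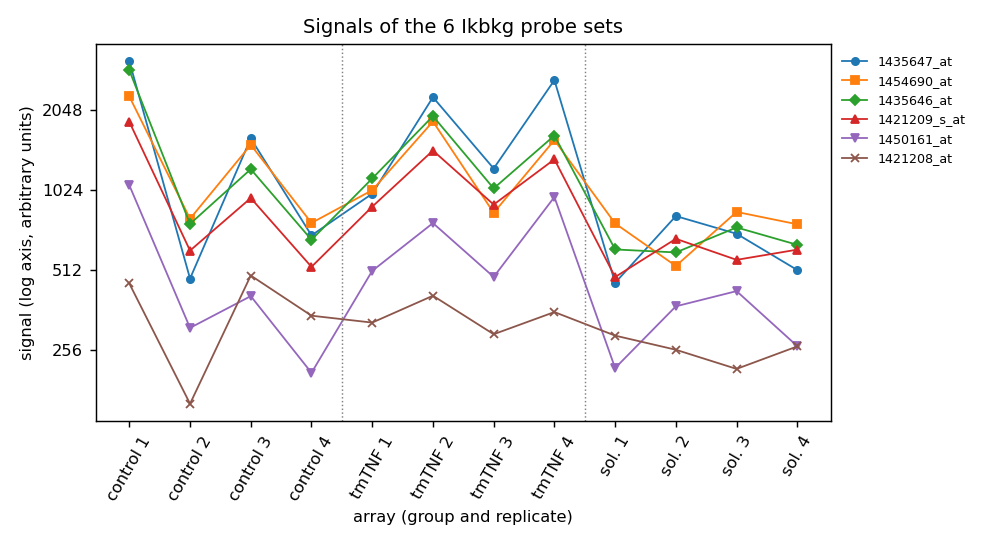
Signals of the 6 Ikbkg probe sets (log axis, arbitrary units) on the 12 arrays, ordered by group and replicate and separated by dotted lines. The lines rise and fall together, with control replicate 1 and tmTNF replicates 2 and 4 high and the soluble TNF arrays low. The brightest probe set spans 458 to 816.2 in soluble TNF and 990.4 to 2647 in tmTNF cells.

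Counted together, 1 of the 6 tested genes was called higher after soluble TNF (Nfkb2), where 0.039% of all genes were called, and 0 of 6 in tmTNF cells, where 0.195% were called. In tmTNF cells 2 of 6 (Nfkb2 and Relb) had an unadjusted limma p under 0.05, as had 7.56% of all genes. Between tmTNF and soluble TNF 1 of 6 was called, lower with tmTNF (Nfkb2 again), where 1.22% of genes were called. Groups did not overlap for 3 of 6 genes after soluble TNF (Nfkb2, Rela and Relb, all higher), and this held for 8.11% of all genes. It held for 1 of 6 in tmTNF cells (Nfkb2, higher; 3.17% of all genes). Between the exposures it held for 3 of 6 (Nfkb2 and Rela lower and Ikbkg higher with tmTNF; 16.1% of all genes). The median log2 fold change of the 6 was 0.45 after soluble TNF, 0.34 with tmTNF and -0.44 between them, beside medians of -0.05, 0.03 and 0.08 over all genes. With arrays scaled to the same median those of the 6 were 0.53, 0.20 and -0.68, beside 0.04, -0.12 and -0.15 over all genes. After soluble TNF the values of the 3 tested subunits were 0.80 to 2.35, and those of the kinases and the scaffold were 0.09 or lower on the probe sets chosen. Over all passing probe sets they ran from -0.04 to 0.32 for Ikbkb, -0.06 to 0.42 for Map3k14 and -0.89 to -0.37 for Ikbkg. Both exposures were set against the same 4 control arrays, so their values are not independent.

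**Figure D4:**
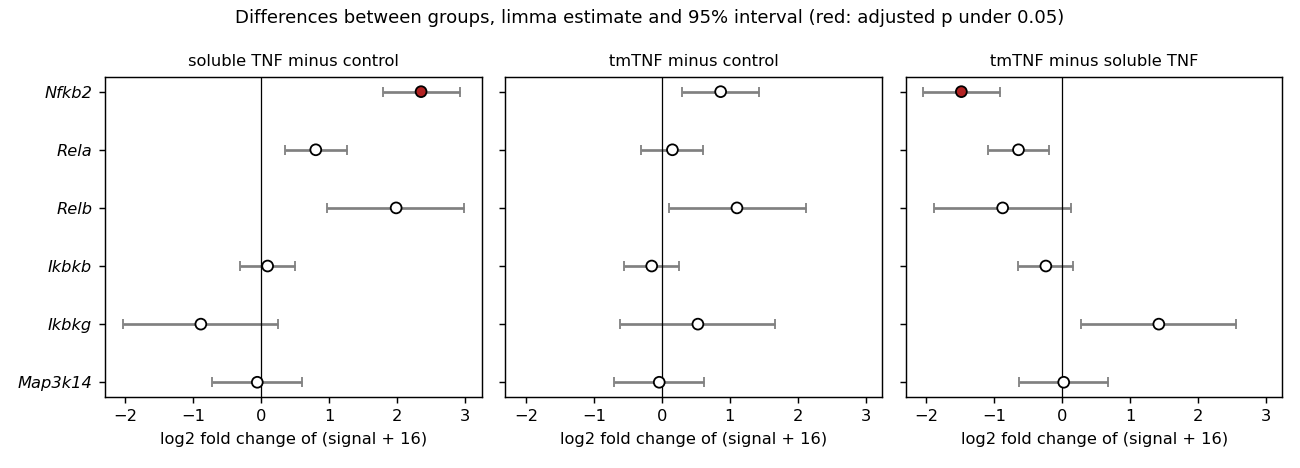
Log2 fold change of (signal + 16) for the 6 tested genes in each comparison, with the limma estimate as a point and its 95% interval as a bar. Filled red points passed an adjusted p of 0.05. Nfkb2 passes at 2.35 for soluble TNF minus control and at -1.49 for tmTNF minus soluble TNF, and the wide bars of Ikbkg (-2.03 to 0.25 in the first panel) show its spread between arrays.

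Other genes of the pathway were followed as lists. Inhibitors of NF-kB and related genes of the IkB family such as Bcl3 and Nfkbiz gave 0 of 10 called by limma in each comparison. Several of them are known to be induced by the factor itself. An unadjusted p under 0.05 was found for 5 of 10 after soluble TNF, 3 in tmTNF cells and 2 between the exposures, beside 12.7%, 7.56% and 19.9% of all genes. The list median after soluble TNF was 0.87 beside -0.05 for all genes. Of the 10, 5 lay wholly above control, where 8.11% of all genes lay wholly above or below it. The 5 were Tnip1, an adaptor of the ubiquitin editor A20 (log2 1.85 ± 0.29, adjusted p = 0.0733), Tnfaip3, which encodes A20 (2.97 ± 0.52, adjusted p = 0.101), and the IkB genes Nfkbie (3.71 ± 0.84), Nfkbib (1.05 ± 0.26) and Nfkbia (1.24 ± 0.34). In tmTNF cells 1 of 10 lay wholly above control, Tnip1 (1.52 ± 0.29, adjusted p = 0.0674), where 3.17% of all genes lay wholly above or below it. Nfkbie (3.03 ± 0.84, adjusted p = 0.262) and Tnfaip3 (1.23 ± 0.52, adjusted p = 0.623) were also higher with tmTNF but overlapped control. The list median with tmTNF was 0.13, or -0.02 with arrays scaled to the same median. Under that scaling all genes had a median of -0.12 in place of 0.03. Set directly against soluble TNF, tmTNF cells had lower values of Tnfaip3 (-1.74 ± 0.52, adjusted p = 0.11) and Nfkbib (-0.86 ± 0.26, adjusted p = 0.109), which did not overlap. These were 2 of 10, and 16.1% of all genes did not overlap in this comparison.

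For the receptors of the noncanonical route and the complex that degrades NIK, 6 of 9 listed genes were tested and limma called 0 in each comparison. In the same order 2, 2 and 0 had an unadjusted p under 0.05, beside 12.7%, 7.56% and 19.9% of all genes. Birc3, a ubiquitin ligase of that complex (cIAP2), had values of 2.11 ± 0.45 after soluble TNF (adjusted p = 0.174) and 1.96 ± 0.45 in tmTNF cells (adjusted p = 0.144), in both cases without overlap with control. Of the 6 tested, 2 lay wholly above control after soluble TNF and 1 with tmTNF. Of all genes 8.11% and 3.17% lay wholly above or below it. Birc2, its close relative, had 0.66 ± 0.29 with tmTNF (adjusted p = 0.637), and Ltbr, the lymphotoxin beta receptor, -0.65 ± 0.30 after soluble TNF (adjusted p = 0.391). The list medians were 0.52 and 0.65. Between tmTNF and soluble TNF the Birc3 value was -0.15 ± 0.45 (adjusted p = 0.882).

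The canonical receptor complex and related kinases gave 0 of 15 called by limma in each comparison. Of the 15, 3, 1 and 3 had an unadjusted p under 0.05, beside 12.7%, 7.56% and 19.9% of all genes. The medians were -0.18 after soluble TNF and 0.03 in tmTNF cells, the latter -0.10 with arrays scaled to the same median. Tnfrsf1a, the main TNF receptor, had -1.12 ± 0.31 after soluble TNF (adjusted p = 0.244), with all 4 arrays below control. Traf1, an adaptor, was under 100 on all control arrays. It was at least 1.94-fold higher after soluble TNF (adjusted p = 0.286). With tmTNF it was at least 1.82-fold higher, though with overlap (adjusted p = 0.469). Ikbke, an IKK-related kinase, had 1.04 ± 0.40 after soluble TNF (adjusted p = 0.327). Tnfrsf1b, the second TNF receptor, was higher in tmTNF than in soluble TNF cells by 1.47 ± 0.48 without overlap (adjusted p = 0.133). After soluble TNF 2 of the 15 lay wholly above control and 1 wholly below, where 8.11% of all genes lay wholly above or below it. Between the exposures 2 of the 15 did not overlap, as was found for 16.1% of all genes. The 5 ubiquitin ligase subunits that act on IkB and p100 gave 0 called by limma (1, 0 and 1 had an unadjusted p under 0.05, beside the same shares of all genes). Their medians were 0.04 after soluble TNF, or -0.02 with quantile scaling, and -0.08 in tmTNF cells. The largest difference from control was that of Fbxw7, -0.75 ± 0.34 after soluble TNF (adjusted p = 0.391).

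Endothelial targets of NF-kB had the largest list medians among lists with more than 1 tested gene, 2.55 after soluble TNF and 1.94 in tmTNF cells over 13 tested genes. After soluble TNF limma called 0 of 13, and 7 had an unadjusted p under 0.05, beside 12.7% of all genes. Of the 13, 5 lay wholly above control, where 8.11% of all genes lay wholly above or below it. Among the 5 were Ccl2, a monocyte chemokine (3.27 ± 0.62, adjusted p = 0.152), and Vcam1, a leukocyte adhesion molecule (4.87 ± 1.17, adjusted p = 0.209). In tmTNF cells 1 of 13 was called higher, the adhesion receptor Icam1, where 0.195% of all genes were called. It was at least 7.14-fold higher than in controls, which all lay under 100 (adjusted p = 0.00492). A further 3 of 13 lay wholly above control without passing: Ccl2 (2.87 ± 0.62, adjusted p = 0.101), the related chemokine Ccl7 (4.16 ± 1.27, adjusted p = 0.346) and the neutrophil chemokine Cxcl5 (at least 1.81-fold higher, adjusted p = 0.19). In all 6 of 13 had an unadjusted p under 0.05 with tmTNF, beside 7.56% of all genes. Of all genes 3.17% lay wholly above or below control with tmTNF. After soluble TNF Icam1 was at least 1.66-fold higher than in controls (adjusted p = 0.195). Icam1 thus lay on the other side of Nfkb2, with mean signals of 1121 in tmTNF and 206.7 in soluble TNF cells. This difference of 2.11 ± 0.63 did not pass (adjusted p = 0.114), and the arrays overlapped. The 13 targets went both ways between the exposures, with a median of -0.20. Cx3cl1 had -2.02 ± 0.86 (adjusted p = 0.221) and Il6 2.655 ± 1.17 (adjusted p = 0.235). Of the 8 listed targets of the noncanonical route 5 had a probe set and 1 passed the filter, the chemokine Cxcl12 (3.12 ± 0.67 after soluble TNF, adjusted p = 0.174, and 1.12 in tmTNF cells). Its difference between the exposures was -2.001 ± 0.67 (adjusted p = 0.141).

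**Figure D5:**
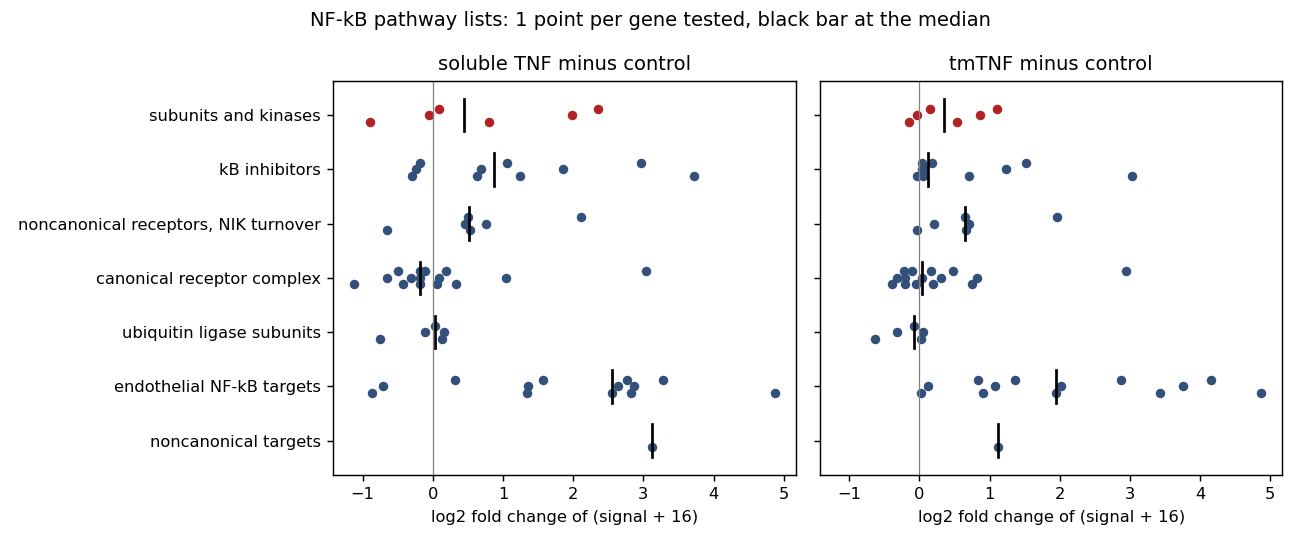
Log2 fold change of (signal + 16) for every tested gene of each NF-kB pathway list, 1 point per gene, for soluble TNF minus control and tmTNF minus control, with the list median as a black bar. Red points are the 6 tested subunits, kinases and scaffold (medians 0.45 and 0.34). Among lists with more than 1 tested gene the endothelial targets lie furthest to the right (medians 2.55 and 1.94), and the canonical receptor complex centres near 0.

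The genes whose pattern over the 12 arrays was most like that of Nfkb2 were Zfp275 (r = 0.901), the ion cotransporter gene Slc12a2 (0.898), Sf3b3, a splicing factor subunit (0.895), Bcl10, a signalling adaptor of the canonical route in lymphocytes (0.893), and Jmjd4 (0.891). After soluble TNF Slc12a2 was called (1.91 ± 0.27, adjusted p = 0.0359), and Bcl10 had 1.40 ± 0.23 (adjusted p = 0.0794). For Relb they were Mtmr14 (0.883), Birc3 (0.872), Mlxip (0.869), Marchf3 (0.860) and Tnip1 (0.858), so 2 of the 5 were pathway genes from the lists above. These correlations mix differences between groups with those within them. With group means removed they were 0.256 to 0.825 for the genes nearest Nfkb2 and 0.648 to 0.776 for those nearest Relb. Nfkb2 and Relb themselves correlated at r = 0.76, and at 0.13 with group means removed.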

How the data were processed

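Biotin-labelled RNA (about 5 micrograms) of each of the 12 samples was measured on 1 array. The authors deposited background-corrected intensity values, 1 per probe set and array on a linear scale, and the submitters' processing notes name MAS5, with settings not given in the sources used here. The 2% trimmed mean of each deposited column was 1000. Detection calls were not used. Here each array was scaled to a 2% trimmed mean of 500 over all probe sets but the 64 controls and transformed to log2(signal + 16), which understates changes of dim genes. Probe sets with 1 gene symbol (34958) were used, 932 had several, and 34741 identifiers matched RefSeq's GRCm38.p6 gene table, which changed 0 symbols.

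All 3 groups were fitted together with limma 3.58.1 in R 4.3.3 (lmFit and eBayes, trend on). Tests were two-sided and p-values were Benjamini-Hochberg adjusted over 10269 genes, with a threshold of 0.05. The model was tested on simulated data. "Called" means past that threshold. If the dimmer group stayed under 100 on each array, a fold is given against a signal of 100 as "at least". The number of arrays, 4 a group, limits the precision.

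The genes and lists were chosen with earlier results of these data known. Named were all members, list genes that were called or had the 3 smallest unadjusted p-values under 0.05 per list and comparison (not all are given in the text), and the 5 genes most correlated with Nfkb2 and with Relb. Of the list genes whose groups do not overlap, some were added after the values were seen and others are not named. Alternatives were other scalings, pseudocounts (1, 64), filters (none, 250), probe set choices, variance models, array weights and leaving out arrays. Omission of the 3 arrays lowest in endothelial markers and that marker score as a covariate were added after seeing the data.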

Additional observations from a re-analysis of the deposited data

Results flagged for a closer look

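Nfkb2 differed between the 2 exposures when they were compared directly: the log2 difference of tmTNF minus soluble TNF was -1.485 (SE 0.26, limma adjusted p = 0.0232), and all 4 tmTNF arrays lay below all 4 soluble TNF arrays. Relb on tmTNF replicate 3 stood apart from its group, with a signal of 1557 against 366.7 to 491.4 on the other 3 arrays. Its gap to the nearest array was 0.895 of the group's range, past Dixon's 95% critical value for 4 arrays. On the log2 scale the gap was 0.80 of the range and did not pass. Of 21 combinations of gene and group, 1 passed on the signal scale, which was examined after the data had been seen, and 0 on the log2 scale. Chance gives about 1 in 20.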

How the results depend on the processing

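Of 483 values of single genes under the alternatives, 451 kept their direction and side of the threshold. Many could not change direction, since the filters, the variance models and the omission of an array of the third group leave the log2 value as it was. Most were uncalled in the main fit as well, so the count says little about the Nfkb2 calls. For soluble TNF against control, Nfkb2 was called in all 15 settings other than the omission of 1 array (log2 1.99 to 2.44). The count of called genes was 0 to 1 and the Nfkb2 value 2.19 to 2.46 when 1 array was left out. For tmTNF minus soluble TNF, the mean of all probe sets gave 0 called genes (Nfkb2 -1.197, adjusted p = 0.0618) and array weights gave 3. With those weights 1176 of all 10269 genes were called in this comparison, against 125 without them. Leaving out 1 array gave 0 to 1 and -1.63 to -1.304 for Nfkb2. The cause was not tested.

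Uncalled values near 0 changed sign. Map3k14 did so for soluble TNF against control with quantile scaling (0.011), the same median on every array (0.021), the mean of all probe sets (0.179) and the probe set of highest variance (0.417). For tmTNF against control it did so with the last 2 of these (0.184 and 0.405). For tmTNF minus soluble TNF the values were -0.184, -0.187 and -0.012 with quantile scaling, the same median and the probe set of highest variance, and -0.275 without the 3 arrays lowest in endothelial markers. Leaving out 1 array, Map3k14 ran from -0.189 to 0.078, from -0.168 to 0.19 and from -0.094 to 0.249 in these comparisons. Ikbkb in tmTNF against control turned to 0.114 with the probe set of highest variance and to 0.146 without those 3 arrays. The filter at 250 left no Map3k14 value. The replicate numbers are in accession order and pair no samples.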

Other observations

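Rela and Ikbkg moved in opposite directions between arrays of the same group. With group means removed, their log2 signals correlated at r = -0.83 over the 12 arrays, beside values of -0.55 to 0.63 for the other 14 pairs among the 6 tested genes. Control replicate 1 had the lowest Rela signal of all arrays (1520) and the highest Ikbkg signal (3122), and soluble TNF replicate 1 the highest Rela signal (4311) and the lowest Ikbkg signal (458). The pair was picked after all 15 had been seen, the arrays share their scaling, and the value is given as a description.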
